A study of Mus musculus with 13 samples.

Results

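The 8 genes described here are known from tendon cells (tenocytes) and were listed by name: Thbs4, Fmod, Tnmd, Comp, Scx, Mkx, Kera and Chad. All 8 were found among the 24015 genes of the expression table of whole mouse quadriceps, and 7 of them reached the level needed for a test, 1 TPM or more in at least 3 libraries. TPM states a transcript's abundance relative to the whole library after correction for gene length. RNA of whole-muscle lysates of C57BL/6 quadriceps was sequenced in 13 libraries of 4 groups, prepared with a TruSeq v2 kit. In batch 2, 3 libraries came from aged mice given 15-PGDH inhibitor SW033291, at 5 mg/kg daily by intraperitoneal injection, and 3 from aged mice given its vehicle of ethanol, Cremophor EL and dextrose water. In batch 1, 3 libraries came from aged mice and 4 from young mice, all given vehicle. Aged mice were labelled as over 24 months old and young mice as 3 months old, and treatment lasted 4 weeks in every group. SW033291 blocks 15-PGDH, the enzyme that degrades prostaglandin E2.

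Tendon joins muscle to bone and is built from parallel fibres of collagen I, which tenocytes make and keep in order. The transcription factors Scx (scleraxis) and Mkx (mohawk) direct this program, and the membrane protein tenomodulin (Tnmd) is the classical marker of the mature cell. Fmod (fibromodulin), Kera (keratocan) and Chad (chondroadherin) are small secreted proteins with leucine-rich repeats, and Fmod controls the thickness of collagen fibrils. Thbs4 (thrombospondin-4) and Comp (thrombospondin-5) are pentameric matrix proteins that bind collagen, and in zebrafish a Thbs4 protein is needed for muscle attachment to tendon. Several of these genes are not restricted to tendon: Kera is known from the cornea, Chad and Comp from cartilage, and Tnmd also from adipose tissue.

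Scx is a basic helix-loop-helix factor that binds the E-box, written CANNTG, so the start regions of Thbs4 and Fmod, the members with the largest differences with age, are shown with that motif in capitals, beside that of Tnmd, a gene known to depend on Scx. Each stretch runs 5′ to 3′ on the gene's own strand, from 250 bases before to 50 bases after the transcription start, as given by RefSeq for GRCm38.p6, a later build than the mm9 named in the submitters' processing notes.
Thbs4 (chr13:92794769-92795068, minus strand): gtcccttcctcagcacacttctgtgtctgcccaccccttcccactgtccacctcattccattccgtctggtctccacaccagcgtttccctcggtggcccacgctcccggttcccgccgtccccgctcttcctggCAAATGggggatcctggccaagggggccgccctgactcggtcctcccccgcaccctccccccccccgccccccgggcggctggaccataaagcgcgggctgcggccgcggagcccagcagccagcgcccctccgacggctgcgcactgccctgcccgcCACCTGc
Fmod (chr1:134037004-134037303, plus strand): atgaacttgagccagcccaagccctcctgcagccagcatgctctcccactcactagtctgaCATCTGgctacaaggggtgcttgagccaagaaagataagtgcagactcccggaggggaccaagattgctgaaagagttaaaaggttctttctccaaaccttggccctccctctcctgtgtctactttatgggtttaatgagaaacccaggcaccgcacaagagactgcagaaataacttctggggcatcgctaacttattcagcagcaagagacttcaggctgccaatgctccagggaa
Tnmd (chrX:133850758-133851057, plus strand): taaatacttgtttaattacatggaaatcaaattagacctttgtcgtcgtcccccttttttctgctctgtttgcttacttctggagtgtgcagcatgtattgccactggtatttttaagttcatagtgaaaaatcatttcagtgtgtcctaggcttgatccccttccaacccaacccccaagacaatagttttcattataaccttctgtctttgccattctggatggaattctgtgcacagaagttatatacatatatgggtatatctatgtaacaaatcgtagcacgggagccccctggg
CANNTG reads the same on both strands, so 1 search covers both. The Thbs4 window held 2 matches, CAAATG with its first base at -115 and CACCTG with its first base at 44, counted from the start. The Fmod window held 1 match, CATCTG with its first base at -189, and the Tnmd window held 0. Among the other members, the Chad window held 1 match and the Kera window 0, and Comp, Scx and Mkx had no entry. A total of 72.3% of 32851 start regions of the same length held at least 1 match, and 39.6% held 2 or more.

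In quadriceps Fmod and Thbs4 were the abundant members and Mkx the scarcest. Fmod averaged 66.5 TPM and Thbs4 42.6 TPM over the 13 libraries. Scx averaged 8.85 TPM, Chad 8.62 TPM, Comp 7.71 TPM, Tnmd 6.10 TPM and Kera 5.73 TPM. These 7 genes stood at 1 TPM or more in all 13 libraries, so no group alone carried them past the filter. Mkx averaged 0.411 TPM and did not reach 1 TPM in any library. Fmod and Thbs4 together made up 57.7% to 84.4% of the summed TPM of the 8 genes. The sum was 65.8, 89.4 and 120 TPM in SW033291 libraries, 121, 135 and 136 TPM in aged vehicle libraries of batch 2, 79.0, 89.5 and 136 TPM in aged vehicle libraries of batch 1, and 195, 219, 226 and 293 TPM in young libraries. The lowest young library thus lay above the highest aged one.

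Whole libraries were also compared. Each library of TPM sums to the same total and keeps no record of depth, so counting error is unknown. The number of genes at 1 TPM or above ran from 10710 to 11687 over the libraries. Summed markers of skeletal muscle fibres took 209069 to 248828 TPM. Cartilage markers summed to 6.93 TPM in SW033291 replicate 4 and to at most 4.35 TPM in any other library. Among these markers, Col11a2 was above 0 in all 13 libraries, with a mean of 2.51 TPM, and Col2a1 reached 2.61 TPM. Matn1 stood at 0 in all 13 libraries and Acan at 0.60 TPM or less. Neutrophil markers stood apart in 3 libraries, at 1766 TPM in aged vehicle batch 1 replicate 4, 780 TPM in aged vehicle batch 2 replicate 2 and 234 TPM in SW033291 replicate 4, against at most 22.4 TPM elsewhere. The bone gene Ibsp was above 0 in the same 3 libraries alone, at 2.91, 2.87 and 3.33 TPM. Bglap was above 0 only in aged vehicle batch 1 replicate 4, at 11.9 TPM. Bglap2 was above 0 only there and in aged vehicle batch 2 replicate 2, at 7.30 and 4.83 TPM. Dmp1 was above 0 in all 13 libraries, at 0.93 TPM or less. Summed bone markers were 23.3, 8.33 and 3.54 TPM in the same 3 libraries, against at most 1.05 TPM elsewhere. The labels do not say whether libraries stem from different animals, so the p-values below rest on sample-to-sample spread, which may be technical.

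**Figure D1:**
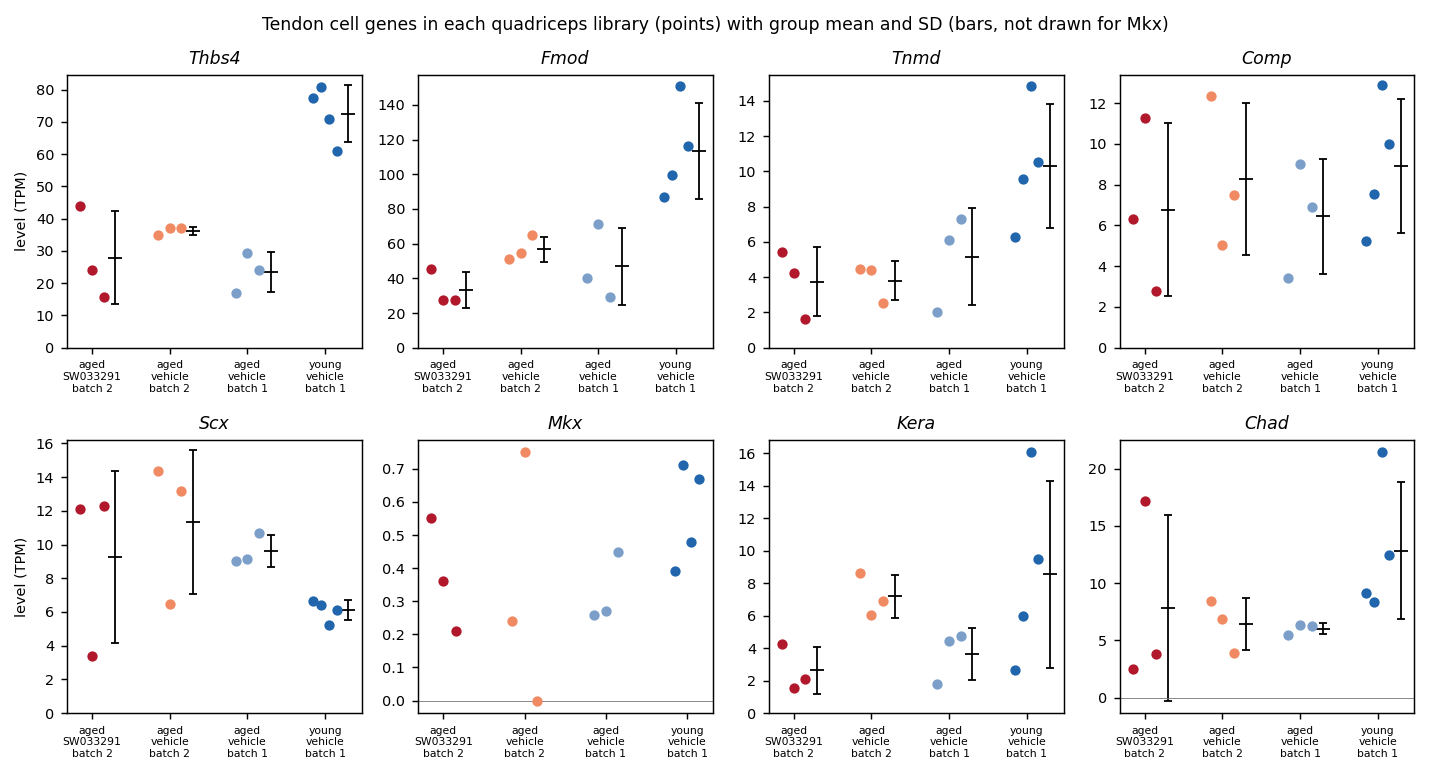
Level in TPM of each of the 8 tendon cell genes (panels, linear axes) in every library (points), with the group mean and SD beside them (not drawn for Mkx, which includes a value of 0). Groups run from aged SW033291 to young vehicle, and the young libraries of Thbs4 (60.9 to 80.9 TPM) and Fmod (87.1 to 151 TPM) lie above all 9 aged libraries.

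Within batch 1, aged and young vehicle libraries were set against each other to ask which tendon cell transcripts differ with age. Thbs4 fell in aged muscle, to 0.328 times the young level on the TPM + 1 scale. Fmod, Tnmd, Comp, Kera and Chad had lower means without passing the test over all genes. Scx, the regulator, had a higher mean in aged muscle and also did not pass. Of the 7 tested members, 1 passed limma's test at a Benjamini-Hochberg adjusted p under 0.05, in the direction of a fall, where 0.455% of 11876 genes passed in either direction, 0.370% with a rise and 0.0842% with a fall. At an unadjusted p under 0.05, 3 of the 7 members were lower and 0 were higher, where 9.92% of all genes passed in either direction and 2.72% were lower. RNA of a whole muscle does not show which cells, of tendon or other tissue, the transcripts came from. Fewer cells that make them and less RNA per cell cannot be told apart in it.

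The thrombospondin Thbs4 had 17.1, 29.4 and 24.2 TPM in aged replicates 2, 3 and 4, against 77.4, 80.9, 70.8 and 60.9 TPM in young replicates 1, 3, 4 and 5. All 3 aged libraries were low and all 4 young ones high, with a gap between them. The mean was 23.5 ± 6.20 TPM in aged muscle (SD, n = 3) and 72.5 ± 8.80 TPM in young muscle (SD, n = 4). The difference was -1.61 in log2(TPM + 1), with a 95% interval of -2.17 to -1.05 (limma adjusted p = 0.015). The call ended without young replicate 1 (difference -1.57, limma adjusted p = 0.062), without aged replicate 2 (-1.40, 0.081), without the 3 neutrophil-rich libraries together (-1.64, 0.065) and without a filter on low values (-1.61, 0.051). Over its 19 alternatives the difference lay between -1.78 and -1.29. In batch 2, Thbs4 stood at 34.8 to 37.0 TPM in aged vehicle libraries, also below every young library.

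Comp, the other thrombospondin of tendon, showed no separation of the groups. It had 3.41, 9.02 and 6.90 TPM in aged replicates 2, 3 and 4, against 5.25, 7.53, 12.9 and 9.99 TPM in young replicates 1, 3, 4 and 5. The groups overlapped, with aged replicate 3 above 2 of the young libraries. The difference was -0.43, with an interval of -1.31 to 0.44 that reaches across 0 (limma adjusted p = 0.82).

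Among the leucine-rich repeat proteins, Fmod was the most abundant member. It had 40.0, 71.6 and 29.0 TPM in aged replicates 2, 3 and 4, against 87.1, 99.8, 151 and 116 TPM in young replicates 1, 3, 4 and 5. The groups did not overlap, and aged replicate 3 came closest to the young range. The difference of -1.33 (95% interval -1.91 to -0.75) lay just outside the threshold (limma adjusted p = 0.052). It passed under all 3 scalings tried (limma adjusted p = 0.033 to 0.048), with a minimum of 5 TPM (0.046), with a pseudocount of 0.5 TPM (0.0495) and without aged replicate 3 (0.015), but not without a filter (0.11), with 2 groups per fit (0.13), with no trend on expression (0.085) or without any 1 of the other 6 libraries (0.084 to 0.15).

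Kera had 1.78, 4.41 and 4.73 TPM in aged replicates 2, 3 and 4, against 2.62, 5.95, 16.1 and 9.49 TPM in young replicates 1, 3, 4 and 5. The young libraries alone covered a range of 6.14-fold, and young replicate 1 lay within the aged range. The difference was -0.89 (interval -1.83 to 0.04, limma adjusted p = 0.54). Chad had 5.46, 6.33 and 6.26 TPM in aged replicates 2, 3 and 4, against 9.18, 8.31, 21.4 and 12.5 TPM in young replicates 1, 3, 4 and 5. The aged libraries were close together and below every young library, with young replicate 4 far above the others. The difference was -0.89 (interval -1.88 to 0.09, limma adjusted p = 0.58). The annotation places Chad inside Acsf2, a gene of the other strand. The sources used here do not state whether reads were counted by strand, so Chad values are uncertain. Acsf2 averaged 1.90 TPM in aged and 2.66 TPM in young muscle, where Chad averaged 6.02 and 12.8 TPM. The part of Acsf2 in the Chad values was not tested.

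The membrane marker Tnmd had 2.05, 6.11 and 7.31 TPM in aged replicates 2, 3 and 4, against 6.25, 9.58, 14.8 and 10.5 TPM in young replicates 1, 3, 4 and 5. Aged replicate 4 lay above young replicate 1, so the groups overlapped. The difference was -0.95 (interval -1.76 to -0.13, limma adjusted p = 0.39). Summed adipocyte markers, of a cell type that also expresses Tnmd, were 782, 1434 and 952 TPM in the same aged libraries, against 3395, 2430, 678 and 894 TPM in the young ones. Their part in the Tnmd values was not tested.

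The regulator Scx had its higher values in aged muscle. It had 9.01, 9.15 and 10.7 TPM in aged replicates 2, 3 and 4, against 6.66, 6.41, 5.25 and 6.13 TPM in young replicates 1, 3, 4 and 5. Every aged library lay above every young one, and both groups were tight, with an SD of 0.93 TPM in aged and 0.61 TPM in young muscle. The difference of 0.58 (interval -0.15 to 1.31) did not pass (limma adjusted p = 0.66), and its sign was the same in all 19 alternatives. The annotation places Scx inside Bop1, a ribosome assembly gene of the other strand, and the sources used here do not state whether reads were counted by strand, so Scx values are uncertain. Bop1 itself had 22.9, 26.0 and 14.0 TPM in aged replicates 2, 3 and 4, against 21.9, 19.0, 25.5 and 20.6 TPM in young replicates 1, 3, 4 and 5, and its part in the Scx values was not tested. Mkx had 0.26, 0.27 and 0.45 TPM in aged replicates 2, 3 and 4, against 0.39, 0.71, 0.48 and 0.67 TPM in young replicates 1, 3, 4 and 5. These levels are too low for a direction, and without a filter its difference was -0.23 (limma adjusted p = 0.76).

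Groups that did not overlap were counted next. Of the 7 tested members, 3 had aged libraries all below the young ones (Thbs4, Fmod and Chad), where 2.70% of all genes did. For 1 member, Scx, the aged libraries were all above, where 8.85% of all genes were. The median difference of the 7 members was -0.89, beside 0.06 for all genes tested, and 6 of 7 were below 0 beside 38.8% of all genes. Across all 9 aged libraries of both batches, 9 lay below every young library for Thbs4 and for Fmod, where 0.783% of all genes tested did so. For Tnmd 8 and for Chad 7 lay below, where 5.09% of all genes had 7 or more. For Scx, 7 of the 9 lay above every young library and 1 below, where 18.6% of all genes had 7 or more above. Batch 2 held no young library, so age and batch cannot be told apart for its 6 libraries. For the 3 of these given SW033291, the drug cannot be told apart from them either. The remaining 3 of the 9 aged libraries are those of batch 1 already counted above.

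The authors' deposited table of aged against young vehicle lists 4 of the 8 members, all lower. Of the 24015 genes of the expression table, it lists 516 as higher and 297 as lower. It gives Thbs4 a log2 fold change of -1.37 (SE 0.18, adjusted p = 1.7e-10) and Fmod -1.28 (SE 0.25, adjusted p = 4.5e-05). The same authors' deposited table gives Tnmd -1.32 (SE 0.35, adjusted p = 0.0097) and Chad -1.22 (SE 0.30, adjusted p = 0.0031). It holds 813 genes with an adjusted p of at most 0.0999, and it does not state which libraries entered it.

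**Figure D2:**
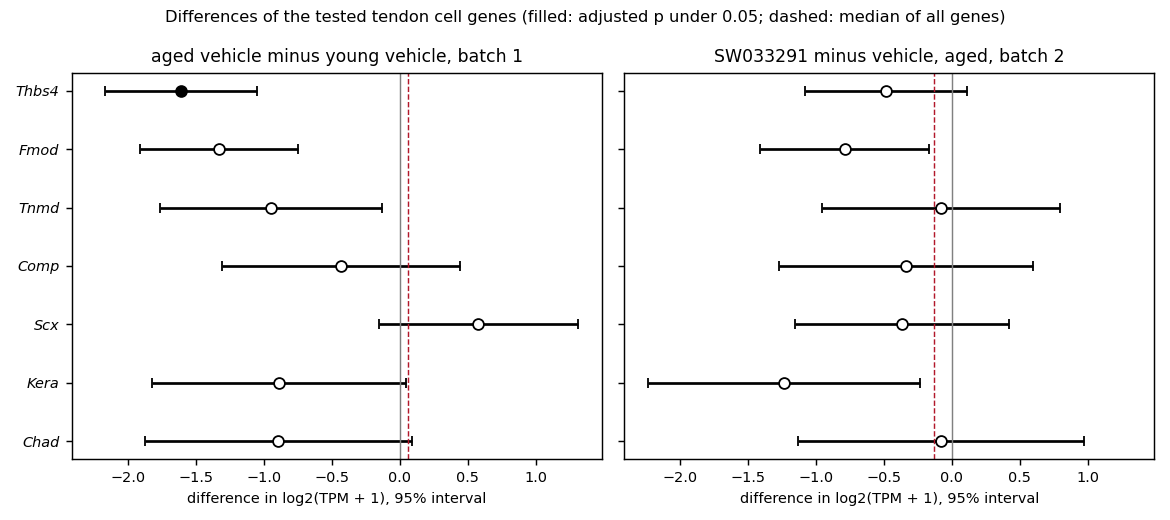
Difference in log2(TPM + 1) of the 7 tested tendon cell genes with its 95% interval from limma, for aged vehicle minus young vehicle in batch 1 (left) and SW033291 minus vehicle in aged muscle of batch 2 (right). Only the interval of Thbs4 with age belongs to a called gene (filled point, -1.61), and the dashed lines mark the median of all genes, 0.06 with age and -0.13 with SW033291.

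The comparison of SW033291 with vehicle in aged muscle within batch 2 asks whether the inhibitor shifts the same transcripts. With limma 0 of the 7 tested members passed, as 0% of 11876 genes passed, and 1221 genes (10.3%) had an unadjusted p under 0.05. All 7 members had a difference below 0, with a median of -0.37, but 71.1% of all genes were below 0 too, and the median of all genes was -0.13. Under median-of-ratios scaling and under quantile normalization, which bring that median to -0.0040 and -0.011, 5 of the 7 members were below 0. At an unadjusted p under 0.05, 2 of the 7 members were lower, where 8.82% of all genes were. These were Fmod and Kera, which were also lower in every treated library than in every vehicle library, where 15.1% of all genes were.

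Fmod stood at 45.1, 27.3 and 27.3 TPM in SW033291 replicates 1, 4 and 6, against 51.3, 54.4 and 65.0 TPM in vehicle replicates 2, 3 and 8. Treated replicate 1 came closest to the vehicle range. The difference was -0.79 (95% interval -1.41 to -0.17, limma adjusted p = 0.42). Kera stood at 4.23, 1.52 and 2.11 TPM in SW033291 replicates 1, 4 and 6, against 8.65, 6.05 and 6.87 TPM in vehicle replicates 2, 3 and 8. The difference was -1.24 (interval -2.23 to -0.24, limma adjusted p = 0.42), and all 3 treated libraries were low. In the authors' deposited table of SW033291 against vehicle, Fmod had a log2 fold change of -0.64 (unadjusted p = 0.0031) and Kera one of -1.23 (unadjusted p = 0.020), and that table gives no adjusted p. The mean normalised signal there was 245 for Fmod and only 17.0 for Kera. The authors' deposited table gives Thbs4 -0.26, Scx -0.30, Tnmd 0.10, Comp 0.11, Mkx 0.37 and Chad 0.62 (unadjusted p = 0.28 to 0.88), so the sign for Tnmd, Comp and Chad is opposite to that of the TPM fit.

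Thbs4 stood at 43.9, 24.2 and 15.7 TPM in SW033291 replicates 1, 4 and 6, against 34.8, 37.0 and 37.0 TPM in vehicle replicates 2, 3 and 8. The treated libraries lay on both sides of the narrow vehicle range. The difference was -0.48 (interval -1.08 to 0.11, limma adjusted p = 0.55). Tnmd stood at 5.42, 4.21 and 1.62 TPM in SW033291 libraries, against 4.44, 4.43 and 2.51 TPM in vehicle libraries, with a difference of -0.08 (interval -0.95 to 0.79). Comp stood at 6.30, 11.3 and 2.78 TPM in SW033291 libraries, against 12.4, 5.03 and 7.50 TPM in vehicle libraries, with a difference of -0.34 (interval -1.28 to 0.60). For both genes the groups overlapped.

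The values of Scx and Chad turned on SW033291 replicate 4, a library with many neutrophil transcripts. Scx stood at 12.1, 3.36 and 12.3 TPM in SW033291 replicates 1, 4 and 6, against 14.4, 6.47 and 13.2 TPM in vehicle replicates 2, 3 and 8. Its difference was -0.37 (interval -1.15 to 0.42), 0.16 without treated replicate 4 and 0.36 without the 3 neutrophil-rich libraries. Chad stood at 2.54, 17.1 and 3.80 TPM in SW033291 replicates 1, 4 and 6, against 8.40, 6.89 and 3.92 TPM in vehicle replicates 2, 3 and 8. Replicate 4 was the lowest of all 13 libraries for Scx and the highest aged library for Chad. The difference of Chad was -0.08 (interval -1.13 to 0.97), -0.79 without treated replicate 4 and 0.38 without treated replicate 1. Summed bone markers were 3.54 TPM in treated replicate 4 and at most 0.48 TPM in the other 2 treated libraries. In vehicle replicates 2, 3 and 8 they were 8.33, 0.22 and 0.33 TPM. Summed cartilage markers were 2.39, 6.93 and 2.06 TPM in treated replicates 1, 4 and 6, against 3.80, 3.37 and 2.49 TPM in vehicle replicates 2, 3 and 8. The part of bone and cartilage transcripts in the values of Scx and Chad was not tested. Mkx stood at 0.55, 0.36 and 0.21 TPM in SW033291 libraries, against 0.24, 0.75 and 0 TPM in vehicle libraries.

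Between the batches, aged vehicle muscle can be compared at the same age and treatment. With limma 0 of the 7 tested members passed, where 2.25% of all genes did, and 2148 genes (18.1%) had an unadjusted p under 0.05. Thbs4 and Kera were higher in every batch 2 library than in every batch 1 library, where 11.9% of all genes were, with differences of 0.64 (limma adjusted p = 0.25) and 0.88 (limma adjusted p = 0.34). The other 5 members had 0.37 (Fmod), -0.27 (Tnmd), 0.32 (Comp), 0.15 (Scx) and 0.03 (Chad). The median of the 7 members was 0.32, beside 0.11 for all genes. This comparison shares its aged libraries with the comparisons of age and of SW033291. By group mean, the tested members other than Scx were highest in young muscle, while Scx was lowest there. For Comp the groups were within their spread, at 6.78 ± 4.26 TPM with SW033291 (SD, n = 3), 8.29 ± 3.72 TPM with vehicle in batch 2 (SD, n = 3), 6.44 ± 2.83 TPM with vehicle in batch 1 (SD, n = 3) and 8.91 ± 3.28 TPM in young muscle (SD, n = 4). The order of the 3 aged groups was not the same for these genes. Thbs4 averaged 27.9 ± 14.4 TPM with SW033291, 36.3 ± 1.26 TPM with vehicle in batch 2 and 23.5 ± 6.20 TPM with vehicle in batch 1 (SD, n = 3 each). Kera averaged 2.62 ± 1.43, 7.19 ± 1.33 and 3.64 ± 1.62 TPM in the same order (SD, n = 3 each).

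**Figure D3:**
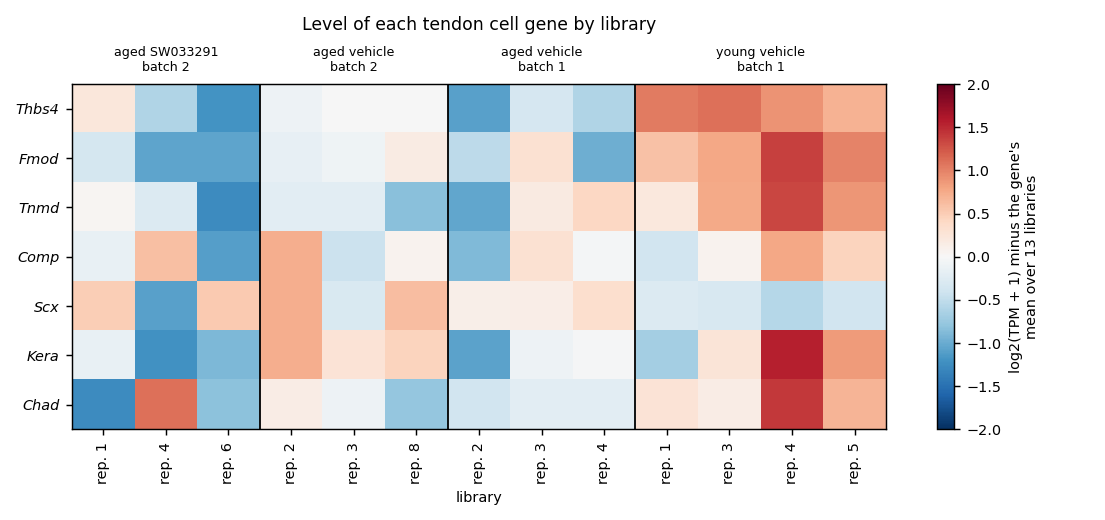
Level of the 7 tested tendon cell genes (rows) in each library (columns, grouped), as log2(TPM + 1) minus the gene's mean over the 13 libraries, from blue (below) to red (above). Young replicate 4 is the highest library for 5 members, and Scx is below its own mean in all 4 young libraries.

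Single libraries differed within groups in several members at once. Young replicate 4 was the highest of the 13 libraries for Fmod, Tnmd, Comp, Kera and Chad, and SW033291 replicate 6 was the lowest for 4 of the 8 members. After removing group means, 21 pairs of members were compared over the 13 libraries. Tnmd and Comp had a Pearson r of 0.75 and a Spearman rho of 0.73, with an exact permutation p of 0.024 and 0.020 over the 5184 orders within groups. Tnmd and Kera had r = 0.73 and rho = 0.74, with an exact permutation p of 0.013 and 0.024. After Benjamini-Hochberg adjustment over the 21 pairs, 0 pairs passed (lowest adjusted exact permutation p = 0.25). Within batch 1 the r was 0.93 for Tnmd and Comp and 0.88 for Tnmd and Kera, and within batch 2 it was 0.59 and 0.40. Without the 2 libraries farthest from the median of Tnmd the r was 0.55 and 0.77. Thbs4 and Fmod, the members with the largest differences with age, had r = 0.47 and rho = 0.28 (exact permutation p = 0.25 and 0.48, adjusted 0.65 and 0.77). Scx and Chad had r = -0.76 and rho = -0.69 (exact permutation p = 0.11 and 0.065, adjusted 0.37 and 0.34).

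Among 11869 other tested genes, those whose log2(TPM + 1) followed a member most closely over the 13 libraries were named as a description, with no test, since the highest of so many values is high by selection. For Thbs4 these were Ak3 (r = 0.94, rho = 0.93), a mitochondrial adenylate kinase, and Col1a2 (r = 0.93, rho = 0.81), a chain of collagen I. For Fmod they were Slc41a3 (r = 0.93, rho = 0.96), a magnesium transporter, and Cilp2 (r = 0.92, rho = 0.86), a matrix protein of cartilage and tendon. For Tnmd they were Hhex (r = 0.91) and Mrpl42 (r = 0.91), for Comp Gpr137b-ps (r = 0.82) and Ptgir (r = 0.80), and for Scx Pgls (r = 0.89) and Ubxn6 (r = 0.87). For Kera they were 4933404O12Rik (r = 0.87) and Fam120a (r = 0.86), and for Chad Chodl (r = 0.87) and Paqr3 (r = 0.80). With group means removed, the r was 0.90 for Ak3, 0.75 for Col1a2, 0.80 for Slc41a3 and 0.75 for Cilp2.

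Other genes of tendon were read from lists to see what surrounded the members. In the tendon matrix list, 5 of 19 tested genes fell with age and 0 rose: Col1a1, Col1a2 and Col3a1, chains of collagens I and III, Sparc, a collagen-binding glycoprotein, and Serpinf1, a secreted serpin. Their differences were -2.17, -1.93, -1.96, -0.96 and -1.23 (limma adjusted p = 0.0079 to 0.031), the median of the list was -0.80, and 17 of 19 genes were below 0. Over all genes 0.0842% fell, 0.370% rose and 38.8% were below 0. Of the 7 fits that each left out 1 library, 0 lost the call of Serpinf1, 1 lost that of Col1a2 (without aged replicate 2), 3 that of Col1a1, 5 that of Col3a1 and 6 that of Sparc. The calls of Col1a1, Col3a1 and Sparc also ended without a filter (limma adjusted p = 0.060, 0.092 and 0.070), those of Col3a1 and Sparc with 2 groups per fit (both 0.058) and with no trend (0.058 and 0.059), and those of Col1a1 and Sparc without the 3 neutrophil-rich libraries (0.056 and 0.090). Against this direction, Cilp, which encodes a cartilage intermediate layer protein, had 0.25 and Prg4, which encodes the joint lubricant lubricin, 0.22 (limma adjusted p = 0.80 and 0.96), and Prg4 had -0.40 without aged replicate 4.

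The families of the members were also read. Of 10 tested small leucine-rich proteoglycans beside the members 0 passed with age, 9 were below 0 and the median was -0.37. Of all genes 38.8% were below 0, with a median of 0.06. Decorin (Dcn), the most abundant, averaged 218 TPM in aged and 263 TPM in young muscle (difference -0.39, limma adjusted p = 0.77). Biglycan (Bgn) had -0.34 (limma adjusted p = 0.71) and Prelp -0.89 (limma adjusted p = 0.16), and Prelp passed in 2 of its 19 alternatives. Of the other 3 thrombospondins 0 passed, with differences of -0.06 for Thbs1, -0.56 for Thbs2 and -0.61 for Thbs3, and Thbs2, the most abundant of them, averaged 4.08 TPM over the 13 libraries.

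Regulators of tendon were read next. Of 11 tested regulators 0 passed, with 7 above and 4 below 0 and a median of 0.06, beside 0.06 for all genes. Tgfb3, a ligand that induces Scx, had 0.32 and Smad3, a transducer of TGF-beta signals, -0.69 (limma adjusted p = 0.47 and 0.14). Smad3 passed in 2 of its 19 alternatives. Of 9 tested genes of the myotendinous junction, where the fibre is anchored to tendon, 1 rose: Ankrd1, a stress-induced ankyrin repeat protein that is also found along the sarcomere, by 2.14 (limma adjusted p = 0.039), a call lost in 5 of 7 fits that left out 1 library. It was also lost without a filter (limma adjusted p = 0.11), with 2 groups per fit (0.11), with no trend (0.063) and without the 3 neutrophil-rich libraries (0.071). The structural genes Nrap, Itgb1 and Pxn had 0.40, 0.14 and 0.09 (limma adjusted p = 0.55, 0.84 and 0.91), and Nrap passed in 1 of its 19 alternatives. With SW033291, 0 genes of these lists passed. Between batches in aged vehicle muscle Smad3, Tln2 and Vcl were higher in batch 2, by 1.28, 0.82 and 0.65 (limma adjusted p = 0.010, 0.041 and 0.017), calls lost in 3, 4 and 3 of the 6 fits that left out 1 library. With 2 groups per fit 0 of the 3 passed (limma adjusted p = 0.20, 0.33 and 0.27), and Tln2 and Vcl also missed the threshold under median-of-ratios scaling (0.068 and 0.077) and quantile normalization (0.078 and 0.063). Over 15 alternatives each, the calls of Smad3, Tln2 and Vcl were lost in 4, 9 and 6. Tln2 encodes talin-2 and Vcl vinculin, which link integrins to actin.

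**Figure D4:**
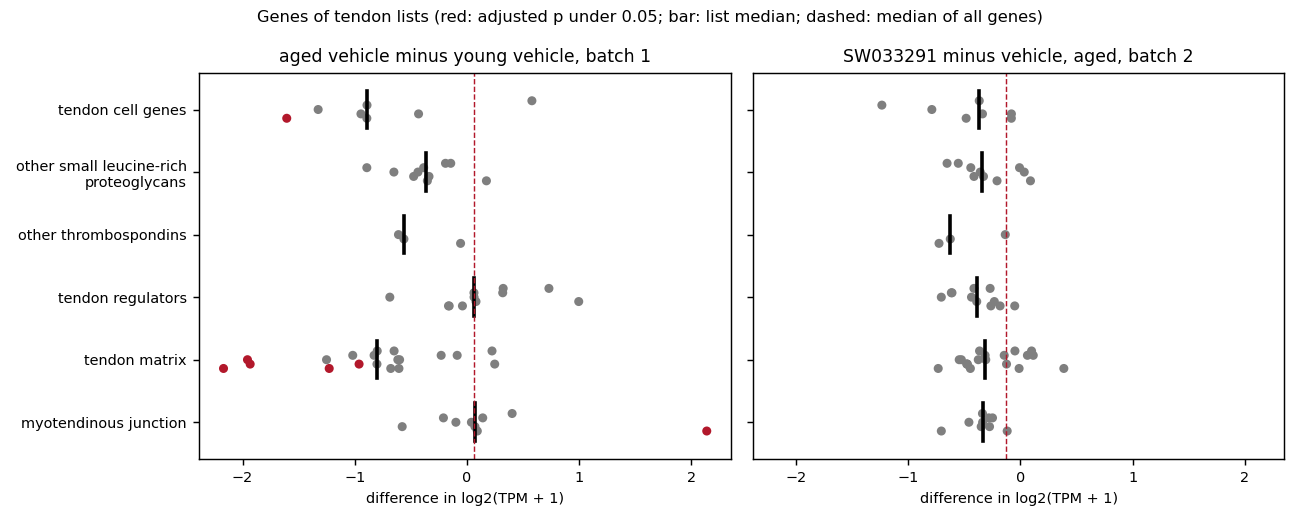
Difference in log2(TPM + 1) of every tested gene (points) in the tendon cell genes and 5 further lists, for aged vehicle minus young vehicle in batch 1 (left) and SW033291 minus vehicle in aged muscle of batch 2 (right). Red points passed the limma test, black bars are list medians (-0.89 for the tendon cell genes and -0.80 for tendon matrix with age), and the dashed line is the median of all genes.

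Markers of other cells were read beside the members. With age, 38.8% of all genes were below 0 and their median was 0.06. Markers of fibro-adipogenic progenitors, the connective tissue cells between fibres, were below 0 with age for 9 of 10 genes with a median of -0.53. Their summed level was 360 to 610 TPM in aged and 585 to 872 TPM in young muscle of batch 1. Adipocyte markers were below 0 for all 10 genes with age (median -0.71) and above 0 for all 10 with SW033291 (median 1.08). With SW033291, 71.1% of all genes were below 0 and their median was -0.13. Adipocyte markers summed to 3978 TPM in treated replicate 1 and to 859 to 1077 TPM in the other 5 libraries of batch 2. Neutrophil markers were above 0 for all 9 tested genes with age, and summed to 0.87, 5.49 and 1766 TPM in aged replicates 2, 3 and 4. Of these 3 lists, 0 genes passed in either comparison. The part of these cells in the differences of the tendon cell genes was not tested. Without aged batch 1 replicate 4, which holds the neutrophil transcripts, the difference of Thbs4 was -1.64 (limma adjusted p = 0.025) and that of Fmod -1.04 (limma adjusted p = 0.10). With all 3 neutrophil-rich libraries left out together, the call of Thbs4 was lost, as given above.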

How the data were processed

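The submitters' processing notes name the tools STAR, RSEM, DESeq and DESeq2 and the build mm9, without versions or an order. For 13 libraries the authors deposited TPM values. The authors also deposited tables for aged against young vehicle and for SW033291 against vehicle, which per the file headers hold a mean normalised signal, a log2 fold change with its SE, a test score and a p-value. In the TPM table, names and values were out of register. After undoing 27 spreadsheet dates, all names were sorted in byte order and put back on the values. For SW033291, genes with a mean normalised signal of at least 50 in the authors' deposited table were compared. Their log2 differences and those in that table then had a Pearson r of 0.93 across 6370 genes, against -0.01 as deposited. These genes are not independent replicates. For age the r was 0.79 across the 813 genes the authors list. In 50 blocks of rows the lowest r was 0.64, and 0.91 without 7 genes that differed by over 1 in log2. Over the 46 to 89 genes of at least that signal around each member, the r for SW033291 was 0.93 to 0.98. Among the members, only Thbs4 and Fmod reached that signal, and the other members had 1.84 to 41.6.

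Differences were tested in limma 3.58.1 (R 4.3.3) on log2(TPM + 1). A gene needed 1 TPM in 3 libraries, which 11876 genes met, and entered 1 fit of all 13 libraries with a coefficient per group and a trend on expression. Adjustment followed Benjamini and Hochberg over all genes of a comparison, with a threshold of 0.05. The pseudocount understates changes of genes near 1 TPM. Exact permutations and figures used Python 3.11.15, SciPy 1.17.1 and matplotlib 3.10.9. Start regions were matched by symbol for 5 of 8 members. Members, lists and tests were chosen with earlier results of these data known. Named from each list were the called genes and the 3 with the highest mean TPM; 1 gene that this rule names is not reported here, and Cilp and Prg4 were named after their values were seen. The alternatives were other pseudocounts, filters, scalings and fits, each library left out in turn, a replicate block and pooled aged batches. Leaving out the 3 neutrophil-rich libraries together was chosen after seeing the data.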

Additional observations from a re-analysis of the deposited data

How the results depend on the processing

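Over the alternatives, the number of members called with age (1 in the reported fit) was 2 with a pseudocount of 0.5 TPM, a minimum of 5 TPM, median-of-ratios scaling, quantile normalization, the 20 most abundant genes left out or aged vehicle of both batches pooled. It was 0 without a filter, with a replicate block and without the 3 neutrophil-rich libraries, and 0 to 2 when 1 library was left out. With SW033291 and between batches it was 0 throughout. Genes called with age numbered 54, and 27 without a filter, 24 with 2 groups per fit, 31 with no trend, 4 with the replicate block, 595 with both aged batches and 19 to 92 with 1 library left out. With SW033291 they numbered 0, and 4 with a pseudocount of 0.1 TPM, 1 with no trend, 4 without the 3 neutrophil-rich libraries and 0 to 1 with 1 library left out. Between batches they numbered 267, and 144 with median-of-ratios scaling, 98 with quantile normalization, 1 with 2 groups per fit, 112 with no trend and 18 to 1643 with 1 library left out. The cause was not tested.

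Only numbers 3 and 4 were shared by aged and young libraries, with correlated deviations of 0.17 and 0.04, so the numbers were not read as pairs. With the replicate block, Thbs4 with age was -1.47 (limma adjusted p = 0.45), Fmod had an adjusted p of 0.50, and the 6 list genes called with age had 0.21 to 0.60, so none of these was called.

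Signs turned for small differences, none of them called. With age, Bgn was 0.012 and Thbs1 0.079 with the replicate block, Thbs1 was 0.074, Tln2 0.31 and Vcl 0.11 with both aged batches, Pxn was -0.0046 without the 20 most abundant genes, and Prg4 was -0.40 without the 3 neutrophil-rich libraries. With SW033291, Chad was 0.049 and Tnmd 0.034 with median-of-ratios scaling, Chad was 0.080 and Tnmd 0.076 with quantile normalization, and Scx was 0.36 without the 3 neutrophil-rich libraries. Between batches, Chad was -0.10 with median-of-ratios scaling and -0.11 with quantile normalization, where Scx was -0.0088. With 1 library left out, the range with age was -0.74 to 0.015 for Dcn, -0.032 to 0.26 for Pxn, -0.40 to 0.54 for Prg4 and -0.29 to 0.16 for Thbs1. With SW033291 it was -0.79 to 0.38 for Chad, -0.75 to 0.10 for Comp, -0.70 to 0.16 for Scx and -0.35 to 0.30 for Tnmd. Between batches it was -0.17 to 0.30 for Chad, -0.014 to 0.60 for Comp, -0.042 to 0.48 for Scx and -0.71 to 0.013 for Tnmd. TPM values keep no depth, so the counting error of the scarce members is unknown. For members other than Thbs4 and Fmod, the authors' deposited SW033291 table gives a low mean normalised signal, from 1.84 (Mkx) to 41.6 (Comp).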
